A study of Mus musculus with 12 samples.

Results

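The genes described are the metallothioneins Mt1 and Mt2, the zinc-sensing transcription factor Mtf1, the zinc exporters Slc30a1 and Slc30a2 and the zinc importers Slc39a5 and Slc39a14, taken by symbol from a table of 24956 genes. All 7 were in the table, and 6 passed the filter on low counts, with 12856 genes tested in all. Slc30a2 did not pass it. They were chosen by their measured values in these tumours, the host difference and the rise with acinar enzyme content, with those results known. Their values in both comparisons are therefore a description, and the adjusted p-values come from fits over all genes and are no independent support.

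RNA was measured in 12 tumours of PDA.69, a pancreatic ductal adenocarcinoma line derived from KPC mice with the label T cell low. Of these, 6 grew in Alb-Cre+/+ STAT3f/f mice (called Alb-Cre Stat3f/f), in which the albumin promoter drives Cre in hepatocytes and the loxP-flanked Stat3 gene is deleted there, and 6 grew in WT mice. The tumour line is the same in both, so the deletion is in the host and the tumour cells carry none. The site and age of the tumours and the age and sex of the hosts are not stated in any source used, and nothing says that each tumour came from its own mouse, so a p-value here reflects only how these 12 samples vary, which may be technical. RNA came from fixed, paraffin-embedded sections and was read at the 3′ ends of transcripts, which makes a count independent of transcript length.

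Metallothioneins are small proteins rich in cysteine that hold zinc and copper, and their genes are switched on by zinc through Mtf1, by glucocorticoids and by interleukin 6. Slc30a proteins move zinc out of the cytosol, across the plasma membrane or into vesicles, and Slc39a proteins move it in. The pancreatic acinar cell, which packs zinc into its secretory granules and makes zinc-dependent carboxypeptidases, is among the cells that turn over most zinc in the body. In bulk tissue, fewer cells of a type and less RNA per cell cannot be told apart.

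Mtf1 acts at metal response elements, whose core was searched for as TGCACNC or TGCGCNC on both strands in the windows from 250 bases before to 50 bases after the gene starts that RefSeq gives on GRCm38.p6. Of the 7 genes, 6 had a window, and Slc39a14 had none. The windows of Mt1, Mt2 and Slc30a1 are shown because these genes are known Mtf1 targets. Each is read 5′ to 3′ on the plus strand, and capitals mark the core in either orientation. The windows lie at chr8:94178839-94179138 for Mt1, chr8:94172368-94172667 for Mt2 and chr1:191906531-191906830 for Slc30a1.
Mt1: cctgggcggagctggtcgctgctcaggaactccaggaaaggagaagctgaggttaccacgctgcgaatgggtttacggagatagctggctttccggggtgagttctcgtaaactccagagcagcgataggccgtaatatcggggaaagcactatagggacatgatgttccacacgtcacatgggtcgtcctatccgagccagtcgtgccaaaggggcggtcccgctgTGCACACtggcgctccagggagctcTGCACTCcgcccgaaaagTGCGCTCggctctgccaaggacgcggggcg
Mt2: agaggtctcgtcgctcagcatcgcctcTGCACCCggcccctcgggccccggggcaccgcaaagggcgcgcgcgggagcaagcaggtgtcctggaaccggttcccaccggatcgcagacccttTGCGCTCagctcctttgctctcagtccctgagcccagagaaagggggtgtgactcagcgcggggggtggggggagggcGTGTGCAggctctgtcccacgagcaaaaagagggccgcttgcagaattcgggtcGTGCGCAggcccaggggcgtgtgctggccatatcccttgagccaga
Slc30a1: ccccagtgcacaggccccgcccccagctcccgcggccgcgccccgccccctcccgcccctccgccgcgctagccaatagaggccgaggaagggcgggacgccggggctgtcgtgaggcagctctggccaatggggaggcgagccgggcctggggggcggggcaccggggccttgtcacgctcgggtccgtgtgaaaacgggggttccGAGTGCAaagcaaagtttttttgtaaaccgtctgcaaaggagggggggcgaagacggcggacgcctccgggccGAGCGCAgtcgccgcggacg

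The Mt2 window held 4 copies of the core, the Mt1 window 3 and the Slc30a1 window 2. In Mt1 the copies began at -23, 3 and 21 relative to the start site, and in Mt2 at -223, -128, -50 and 5. The Slc30a2 window held 2 copies, the first Slc39a5 window 1, and the other Slc39a5 window and the Mtf1 window 0. Of 32851 such windows over all genes, searched for the same pair of cores, 25.7% held at least 1 copy, 7.11% at least 2, 1.97% at least 3 and 0.517% at least 4. No copy of the palindrome TTCNNNGAA, which STAT proteins bind, was in any of the 7 windows of these genes, against 8.3% of all windows. These matches are letters in a short window, and sites farther upstream or downstream were not searched. RefSeq's start sites are not identical to the GENCODE gene starts below, and which start these tumours use was not tested.

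Mt1 and Mt2 lie side by side on mouse chromosome 8 (GRCm38), Mt2 at 94172664 to 94173568 and Mt1 at 94179082 to 94180327, both on the plus strand and 5.51 kb apart. Mtf1 (124802104 to 124849800, plus strand) and Slc30a2 (134343181 to 134354484, plus strand) lie on chromosome 4, Slc30a1 on chromosome 1 (191906767 to 191913247, plus strand), Slc39a5 on chromosome 10 (128395931 to 128401229, minus strand) and Slc39a14 on chromosome 14 (70303469 to 70351425, minus strand). In GENCODE M21, none of the 50-base stretches in the last 300 bases of the protein-coding transcripts of these 7 genes occurred in a transcript of another gene, so reads of Mt1 and Mt2 can be told apart. The 3′ ends of Mt2, Mtf1 and Slc39a5 each lie inside a gene on the other strand, and whether the counting used strand is likewise not stated, so reads of such a pair may not be told apart. For Mt2 that gene is Gm45774, which was not analysed here, and for Mtf1 it is 1110065P20Rik, which had 3 counts in all 12 libraries together. For Slc39a5 it is Ankrd52. Ankrd52 had 4.96 ± 1.97 CPM in Alb-Cre Stat3f/f tumours, against 4.03 ± 1.02 CPM in WT tumours (SD, n = 6 each), well under Slc39a5.

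Libraries held 5691707 to 8085609 counts and 15221 to 16688 detected genes. The 15 acinar markers, genes of pancreatic digestive enzymes and granule proteins such as Prss2 and Cpa1, took 20.6 ± 13.3% of counts in Alb-Cre Stat3f/f tumours, against 5.72 ± 6.43% in WT tumours (SD, n = 6 each). Their share was over 15% in 5 tumours, namely Alb-Cre Stat3f/f 1 to 4 and WT 5, and lowest in WT 6 (0.484%) and Alb-Cre Stat3f/f 5 (0.625%). The ductal markers that fit the tumour line were present in every library. Summed, they had 1941 to 2441 CPM in Alb-Cre Stat3f/f tumours, against 2677 to 3063 CPM in WT tumours. Of 7 tested, Krt7 and Sox9 fell by edgeR, while 0.747% of all genes did. Stat3 had 202 to 302 CPM in Alb-Cre Stat3f/f tumours, against 232 to 273 CPM in WT tumours (log2 fold change 0.00 ± 0.10). A 3′ tag in tumour tissue does not bear on a deletion in hepatocytes.

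Mt1 and Mt2 were among the most abundant transcripts of these tumours and averaged 2.47 and 2.57 times the WT level in Alb-Cre Stat3f/f tumours, without passing the edgeR test over all genes. By mean level Mt1 was rank 41 and Mt2 rank 65 of 12856 tested genes, in CPM (counts per 1000000 after TMM scaling). Together they took 0.191 to 0.438% of all counts in Alb-Cre Stat3f/f tumours, against 0.129 to 0.285% in WT tumours. Of the counts outside the 15 acinar markers they took 0.431 ± 0.175% in Alb-Cre Stat3f/f tumours, against 0.205 ± 0.0603% in WT tumours (SD, n = 6 each).

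Mt1 had 2922, 3130, 4408, 2058, 833 and 1449 CPM in Alb-Cre Stat3f/f tumours 1 to 6, against 1024, 1414, 787, 612, 1346 and 809 CPM in WT tumours 1 to 6. Alb-Cre Stat3f/f 5 lay within the WT range and the other 5 above every WT tumour, so the groups overlapped. The mean was 2467 ± 1287 CPM in Alb-Cre Stat3f/f tumours, against 998.6 ± 323.8 CPM in WT tumours (SD, n = 6 each). On the log2 scale the difference was 1.30 ± 0.38 (SE), and its adjusted p was 0.0905 in edgeR's quasi-likelihood F test, Benjamini-Hochberg adjusted.

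Mt2 had 1861, 2169, 3187, 1351, 657 and 1041 CPM in Alb-Cre Stat3f/f tumours 1 to 6, against 693, 956, 486, 398, 863 and 601 CPM in WT tumours 1 to 6. The same 5 Alb-Cre Stat3f/f tumours stood above every WT tumour. The log2 fold change was 1.36 ± 0.37 with an adjusted p of 0.0750 by the same edgeR test. Mt1 had 1.43 ± 0.108 counts for each Mt2 count in Alb-Cre Stat3f/f tumours and 1.503 ± 0.093 in WT tumours (SD, n = 6 each), so the proportion of the pair was nearly constant while its level varied several-fold.

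Of the 6 genes tested, 0 passed edgeR's test in the host comparison, while 2.98% of all genes passed, 2.23% higher and 0.747% lower. None of the 7 had all 6 Alb-Cre Stat3f/f tumours above all 6 WT tumours, which 1.37% of all genes did, or below them (0.646%). Of the 6, 3 had an unadjusted p under 0.05, against 19.4% of all genes. DESeq2 called 2 of them, Mt1 (adjusted p = 0.00986) and Mt2 (adjusted p = 0.00679), and called 4.81% of all genes higher and 2.24% lower. Without Alb-Cre Stat3f/f 5, the tumour with the least acinar RNA in its group, edgeR called both as well. The log2 fold change was then 1.48 ± 0.29 for Mt1 (edgeR adjusted p = 0.0168) and 1.52 ± 0.30 for Mt2 (0.0201). In that fit 3.64% of all genes were called higher and 1.72% lower. Neither was called in any other fit that left out 1 tumour, with edgeR adjusted p up to 0.180 for Mt1 and 0.152 for Mt2.

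**Figure D1:**
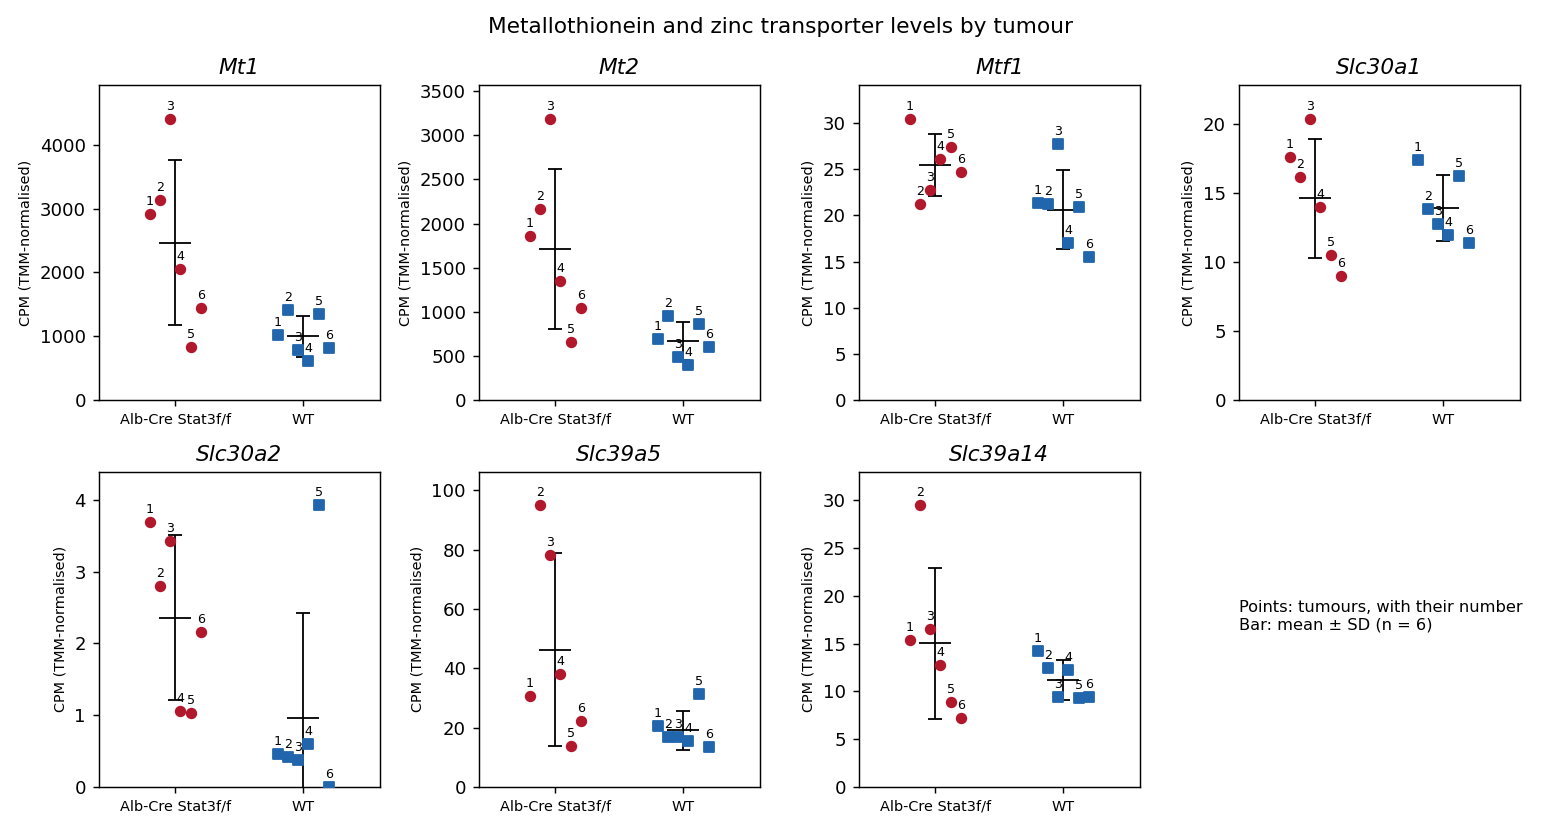
TMM-normalised CPM of each gene by tumour (vertical axis, linear from 0), Alb-Cre Stat3f/f on the left and WT on the right of each panel; points are tumours with their number, bars are mean ± SD (n = 6), and the lower part of the WT bar of Slc30a2 ends at 0. For Mt1 and Mt2, 5 of 6 Alb-Cre Stat3f/f tumours lie above every WT tumour, and in all 7 panels the groups overlap.

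Mtf1, the factor that senses zinc and drives the metallothionein genes, was far less abundant and had a smaller fold change. It had 30.5, 21.3, 22.7, 26.1, 27.4 and 24.7 CPM in Alb-Cre Stat3f/f tumours 1 to 6, against 21.4, 21.2, 27.7, 17.0, 20.9 and 15.5 CPM in WT tumours 1 to 6. The log2 fold change was 0.31 ± 0.15 (edgeR adjusted p = 0.277), and 1 of 6 Alb-Cre Stat3f/f tumours was above every WT tumour.

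The exporter of the plasma membrane, Slc30a1 (ZnT1), had 17.6, 16.1, 20.4, 14.0, 10.5 and 8.999 CPM in Alb-Cre Stat3f/f tumours 1 to 6, against 17.4, 13.8, 12.7, 11.95, 16.2 and 11.4 CPM in WT tumours 1 to 6. Alb-Cre Stat3f/f tumours held both the highest and the lowest values. The log2 fold change was 0.06 ± 0.20 (adjusted p = 0.908 by edgeR), and its sign was negative with the acinar adjustment (-0.21 ± 0.19). Slc30a1 thus showed no host difference larger than the spread between tumours.

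Slc30a2 (ZnT2), which loads zinc into secretory vesicles in the pancreas and mammary gland, was near the limit of detection, with 0 to 24 counts a tumour. It had 21, 12, 16, 7, 8 and 17 counts in Alb-Cre Stat3f/f tumours 1 to 6, against 4, 3, 3, 5, 24 and 0 counts in WT tumours 1 to 6. In sum there were 81 counts in Alb-Cre Stat3f/f tumours, against 39 in WT tumours, a ratio of 2.58 per scaled library size (95% exact binomial interval 1.74 to 3.88, counting error only). WT 5, the WT tumour with the most acinar RNA, held 24 of the 39 counts, and without it the ratio was 5.81 (3.32 to 10.9). Both intervals leave out the spread between tumours. The edgeR fit without the low-count filter, which includes that spread, gave a log2 fold change of 1.31 ± 0.66 (adjusted p = 0.324). No host difference is thus established for Slc30a2.

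The importer Slc39a5 (ZIP5), known from the basolateral membrane of acinar cells and enterocytes, had 30.6, 94.9, 78.2, 38.2, 13.7 and 22.3 CPM in Alb-Cre Stat3f/f tumours 1 to 6, against 20.6, 16.8, 16.7, 15.6, 31.4 and 13.3 CPM in WT tumours 1 to 6. Alb-Cre Stat3f/f 2, 3 and 4 stood above every WT tumour and the other 3 within the WT range. The log2 fold change was 1.27 ± 0.46 (adjusted p = 0.166 by edgeR). On leaving out 1 tumour at a time its adjusted p by edgeR ran from 0.0590, without Alb-Cre Stat3f/f 5, to 0.318.

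Slc39a14 (ZIP14), an importer of zinc, iron and manganese that interleukin 6 induces in liver, had 15.3, 29.5, 16.5, 12.8, 8.84 and 7.22 CPM in Alb-Cre Stat3f/f tumours 1 to 6, against 14.2, 12.4, 9.36, 12.2, 9.32 and 9.43 CPM in WT tumours 1 to 6. Alb-Cre Stat3f/f 2 stood far above the next tumour, and 2 of its group were below every WT tumour. The log2 fold change was 0.40 ± 0.27 (adjusted p = 0.439 by edgeR), and 0.11 without Alb-Cre Stat3f/f 2.

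Against acinar content, Slc39a5 and Mt1 rose with the acinar score, the mean log2 CPM of the 15 acinar markers in a tumour, in a fit with host genotype as a term. The score ran from 6.99 to 14.7. The slope is the change in a gene's log2 level per log2 unit of that score. Of the 6 genes tested 2 passed in the positive and 0 in the negative direction by edgeR, while 3.41% of all non-acinar genes passed, 2.59% positive and 0.818% negative. Slc39a5 had a slope of 0.29 ± 0.05 (adjusted p = 0.00217 by edgeR) and Mt1 one of 0.23 ± 0.05 (adjusted p = 0.0366 by edgeR). Mt2, at 0.20 ± 0.06, had an adjusted p of 0.101 by edgeR and 0.0213 by DESeq2, which called 3.8% of all genes positive and 1.58% negative. The slope was 0.13 ± 0.05 for Slc39a14 (edgeR adjusted p = 0.207), 0.11 ± 0.04 for Slc30a1 (0.126) and 0.01 ± 0.03 for Mtf1 (0.942).

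The calls for the slopes rested on few tumours. Without Alb-Cre Stat3f/f 5 neither passed: the slope of Mt1 was 0.19 ± 0.08 (adjusted p = 0.373 by edgeR) and that of Slc39a5 0.32 ± 0.08 (adjusted p = 0.0661 by edgeR), with 1.06% of genes called positive and 0.147% negative. The adjusted p of Mt1 by edgeR was also 0.0806 on leaving out Alb-Cre Stat3f/f 2, 0.0670 on leaving out number 3 of that group and 0.0675 on leaving out WT 5. Slc39a5 passed in the other 11 such fits. For Slc30a2, which did not pass the low-count filter, the fit without a filter gave a slope of 0.38 ± 0.13 (adjusted p = 0.108 by edgeR).

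Single tumours of like acinar content in both hosts can be set side by side, with no test. Slc39a5 had 30.6 CPM in Alb-Cre Stat3f/f 1 (score 13.2) and 31.4 CPM in WT 5 (score 12.9), where Mt1 had 2922 CPM in Alb-Cre Stat3f/f 1, against 1346 CPM in WT 5. At the lowest scores, Slc39a5 had 13.7 CPM in Alb-Cre Stat3f/f 5 (score 6.99) and 13.3 CPM in WT 6 (score 7.02), and Mt1 had 833 CPM in Alb-Cre Stat3f/f 5, against 809 CPM in WT 6. Between these scores, Slc39a5 had 22.3 CPM in Alb-Cre Stat3f/f 6 (score 11.9) and 20.6 CPM in WT 1 (score 11.4). Mt1 had 1449 CPM in Alb-Cre Stat3f/f 6, against 1024 CPM in WT 1. Alb-Cre Stat3f/f 4 (score 13.5), also near WT 5, had 38.2 CPM of Slc39a5 and 2058 CPM of Mt1. Alb-Cre Stat3f/f 2 and 3 (scores 14.5 and 14.7) lay above the highest WT score and have no counterpart. These few pairs cannot show whether Slc39a5 and Mt1 differ in this respect. A pair of single tumours does not separate host from the spread between tumours: in WT 2 (score 9.69) Mt1 had 1414 CPM, more than in WT 5.

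**Figure D2:**
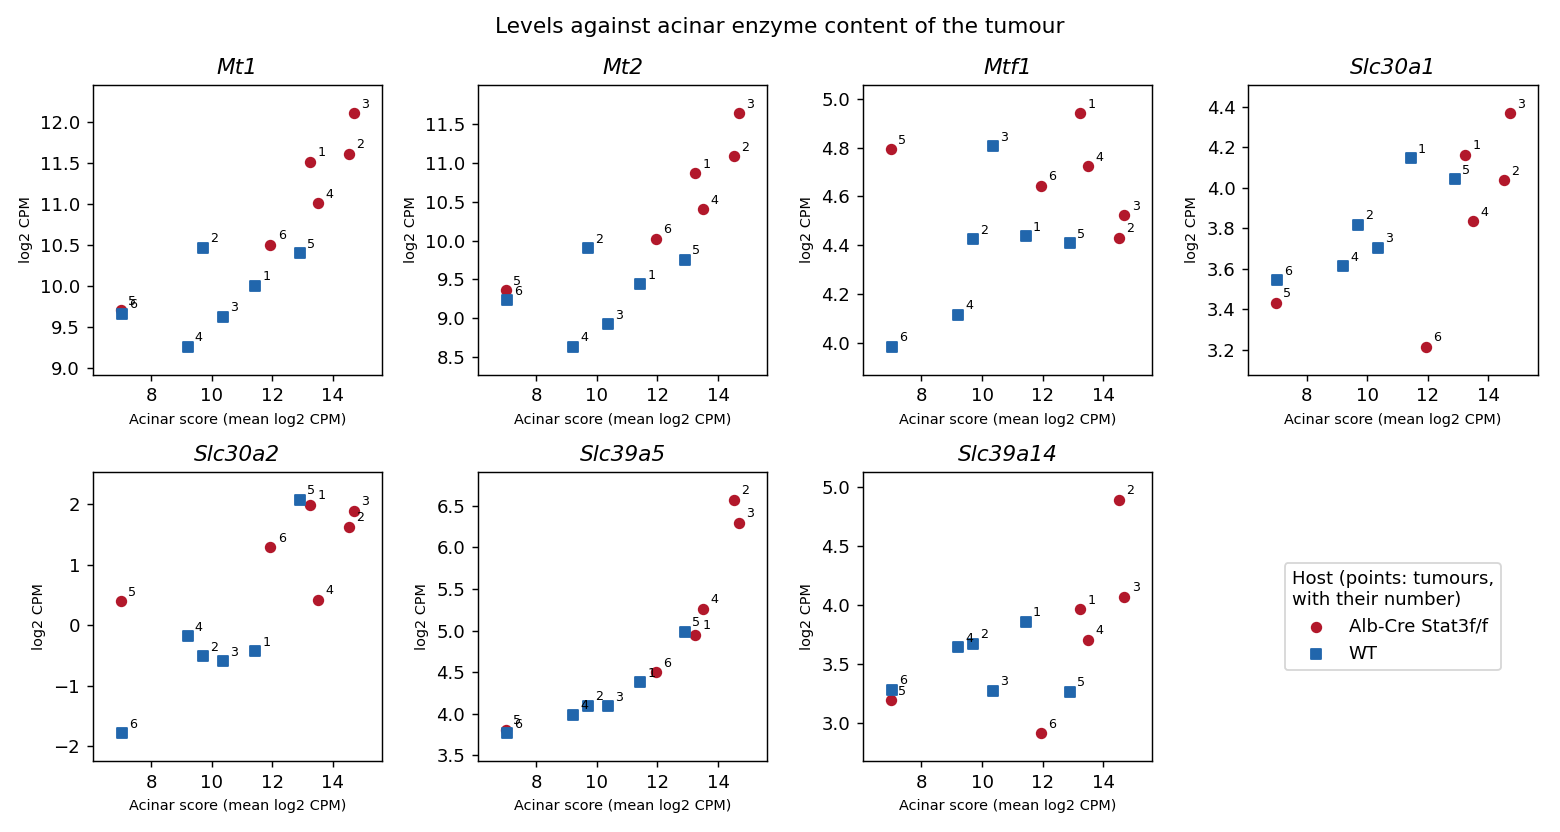
Log2 CPM of each gene (vertical axis) against the acinar score of the tumour (horizontal axis, mean log2 CPM of 15 markers), one point a tumour with its number, circles for Alb-Cre Stat3f/f and squares for WT. Pearson's r with the score is 0.89 for Slc39a5, 0.84 for Mt1, 0.79 for Mt2, 0.77 for Slc30a2 and 0.67 for Slc30a1. It is 0.58 for Slc39a14, which has Alb-Cre Stat3f/f 2 well above the rest, and 0.33 for Mtf1 (slope 0.01 ± 0.03). Only the slopes of Slc39a5 and Mt1 passed by edgeR.

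Among the 6 genes tested, the host difference with the acinar score as a covariate was smaller for Mt1, Mt2, Slc39a5 and Slc39a14. For Mtf1 it was nearly unchanged. For Slc30a1 it went from 0.06 ± 0.20 to -0.21 ± 0.19, neither far from 0 for its SE. With the covariate the difference was 0.61 ± 0.27 for Mt1, 0.74 ± 0.30 for Mt2, 0.40 ± 0.25 for Slc39a5, 0.29 ± 0.17 for Mtf1 and 0.04 ± 0.27 for Slc39a14 on the log2 scale. Their adjusted p by edgeR ran from 0.340 for Mt2 to 0.984 for Slc39a14. Of the 6, 0 passed, 2 had an unadjusted p under 0.05, and 1.35% of all genes passed, 1.07% higher and 0.28% lower. Without the 5 tumours over 15% acinar counts, 2 Alb-Cre Stat3f/f and 5 WT tumours were left, and the log2 fold changes were 0.30 ± 0.33 for Mt1, 0.44 ± 0.33 for Mt2 and 0.12 ± 0.24 for Slc39a5, with 0.607% of genes called higher and 0.102% lower. Those of Slc30a1 and Slc39a14 were negative there, at -0.46 ± 0.25 for Slc30a1 and -0.52 ± 0.27 for Slc39a14, and none of the 6 passed by edgeR (adjusted p of 0.524 to 0.918).

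**Figure D3:**
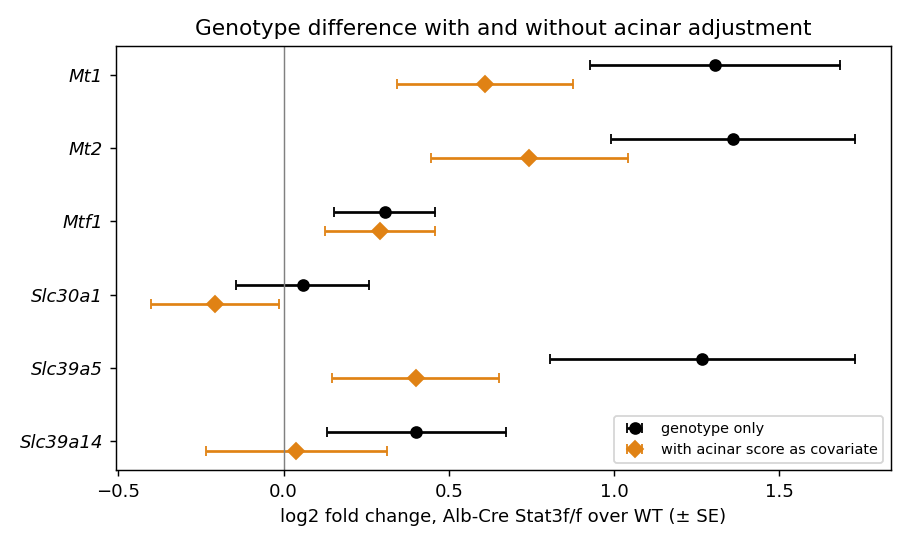
Log2 fold change of Alb-Cre Stat3f/f over WT tumours (horizontal axis, ± SE) for the 6 genes tested, from the fit with genotype alone (circles) and after adding the acinar score (diamonds), 12 tumours each. For Mt1 the value is 1.30 without and 0.61 with the covariate, and for Slc39a5 1.27 and 0.40.

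The slope was also fitted within each host. For Mt1 it was 0.28 ± 0.06 in Alb-Cre Stat3f/f tumours, against 0.12 ± 0.08 in WT tumours, a difference of 0.16 ± 0.09. For Mt2 it was 0.26 ± 0.07 among the Alb-Cre Stat3f/f tumours and 0.09 ± 0.09 among the WT tumours, a difference of 0.17 ± 0.10. For Slc39a5 it was 0.34 ± 0.06 among the Alb-Cre Stat3f/f tumours and 0.20 ± 0.08 among the WT tumours, a difference of 0.13 ± 0.10. None of the 6 differences passed (adjusted p of 1.00 for each by edgeR), nor did that of any gene, with 3.8% of all genes at an unadjusted p under 0.05 and 0 of the 6. At 2 SE to either side, the differences for Mt1, Mt2 and Slc39a5 span both 0 and values above the WT slope itself.

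The genes most like Mt1 across the 12 tumours, by Pearson's r of log2 CPM among 10305 genes of at least 5 CPM, were Mt2 (r = 0.99), Syne4 (0.98), Rab26 (0.96) and Hpn (0.95). For Mt2 they were Mt1, Syne4 (0.98), Rora (0.96) and Hpn (0.95). Rab26, a small GTPase of secretory granules, Hpn, a membrane serine protease, and Syne4, a nesprin of the nuclear envelope, had acinar slopes of 0.39 to 0.40. Hpn, Rab26 and Rora, a nuclear receptor, passed as higher in Alb-Cre Stat3f/f tumours, as 2.23% of all genes did by edgeR. The log2 fold change was 2.36 ± 0.49 for Hpn (edgeR adjusted p = 0.0172), 1.92 ± 0.49 for Rab26 (0.0473) and 0.88 ± 0.21 for Rora (0.0283). Syne4, at 2.17 ± 0.57, did not pass (edgeR adjusted p = 0.0665). These genes were picked for likeness to Mt1 or Mt2, which were themselves chosen by their values. Their host differences and slopes therefore follow from the choice and are no finding. The correlations share libraries, scaling and acinar content and are given as a description. For Slc39a14 the nearest were Jade1 (0.92), Ppp2cb (0.91), Arl5b (0.90) and Errfi1 (0.89). For Slc30a2 they were Ifi27l2a, Bin1, Rexo2 and Serpina10 (all 0.94), with few counts behind the Slc30a2 values.

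Among the described genes, Mt1 had r = 0.89 with Slc39a5, 0.65 with Slc30a1, 0.64 with Slc39a14 and 0.35 with Mtf1 over the 12 tumours. With each host's mean removed, r was 0.84 with Slc30a1, 0.83 with Slc39a5, 0.63 with Slc39a14 and -0.07 with Mtf1. Acinar content was not removed. These values, too, are a description.

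Of the other zinc exporters (Slc30a3 to Slc30a10) 5 of 8 were tested, and of the other importers (Slc39a1 to Slc39a13, without Slc39a5) 10 of 12. In the host comparison 0 of these 15 passed by edgeR, and their median log2 fold change was 0.12 for exporters and -0.08 for importers, against 0.00 over all genes and 0.83 for the described genes that were tested. Unadjusted values were lowest in p for Slc39a4 (ZIP4), an importer known from the gut that pancreatic cancers also express, with 131.7 ± 32.9 CPM in Alb-Cre Stat3f/f tumours, against 174 ± 28.1 CPM in WT tumours (SD, n = 6 each; log2 fold change -0.40 ± 0.15, edgeR adjusted p = 0.148). Slc39a8 (ZIP8), an importer of zinc and manganese close in sequence to ZIP14, had the largest log2 fold change of the 15, 0.97 ± 0.37 (edgeR adjusted p = 0.151). For acinar content 1 of the 15 passed, Slc30a5 (ZnT5), a transporter of the early secretory pathway, with a slope of 0.19 ± 0.05 (edgeR adjusted p = 0.0196). The median slope was 0.16 for the described genes tested, 0.04 for the other exporters, -0.01 for the other importers and 0.00 over all other genes. The described genes were chosen by their values in both comparisons, so their higher medians follow from the choice and are no finding. Over all genes 2.98% passed by edgeR between hosts, and 3.41% of non-acinar genes for the slope. Slc30a8, the zinc transporter of insulin granules, had 46 counts in Alb-Cre Stat3f/f tumours, against 20 in WT tumours. The other metallothioneins were nearly absent: Mt3 had 8 counts in Alb-Cre Stat3f/f tumours, against 1 in WT tumours, and Mt4 had 0, against 5 in WT tumours.

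**Figure D4:**
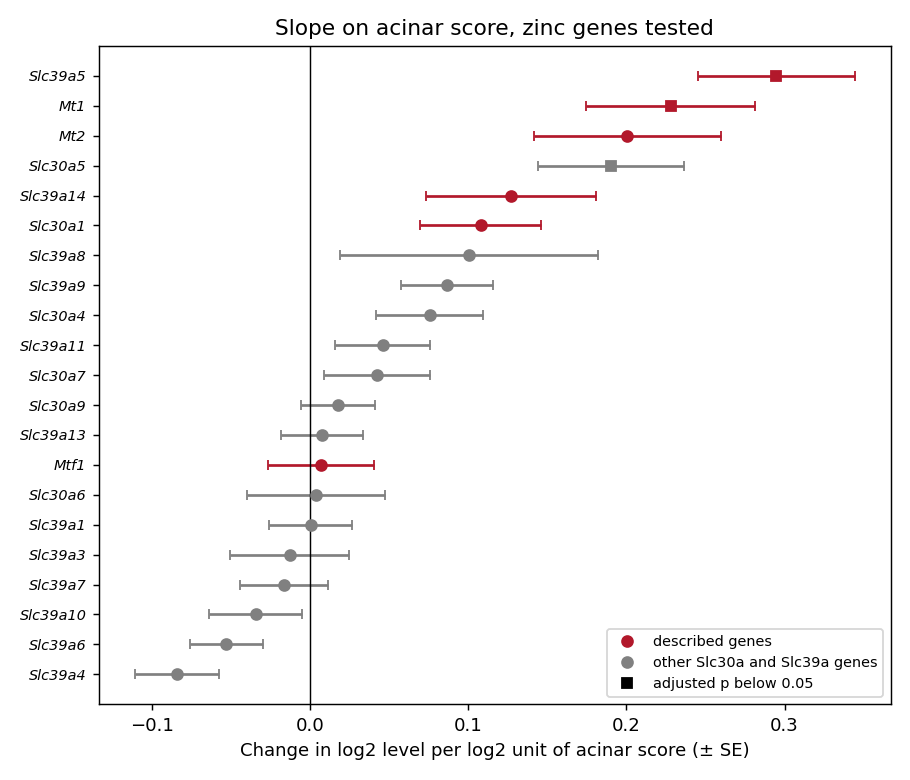
Acinar slope (horizontal axis, log2 level per log2 unit of score, ± SE) of the 21 zinc genes that were tested, the described genes in red and the other Slc30a and Slc39a genes in grey, squares for an adjusted p below 0.05. Slc39a5, Mt1, Mt2 and Slc30a5 have the highest slopes, 0.29 to 0.19, and Slc39a4 the lowest, -0.08.

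Other inducers and metals were set beside them, in lists chosen with earlier results known. Over all genes, edgeR called 2.23% higher and 0.747% lower between hosts. For the acinar slope it called 2.59% of non-acinar genes positive and 0.818% negative. Of 8 glucocorticoid targets 2 rose in Alb-Cre Stat3f/f tumours, 0 fell and 6 did not pass: Fkbp5, a chaperone of the receptor, had a log2 fold change of 0.88 ± 0.15 (edgeR adjusted p = 0.00369) and Zbtb16, a zinc-finger factor, 3.37 ± 0.48 (edgeR adjusted p = 0.00586). Neither passed for acinar content, with a slope of 0.01 ± 0.03 for Fkbp5 and 0.15 ± 0.10 for Zbtb16. Of 7 STAT3 targets 0 passed in the host comparison, and Il4ra, a cytokine receptor chain, fell with the acinar score (slope -0.08 ± 0.02, edgeR adjusted p = 0.0192). Of 8 hypoxia targets 2 fell, the angiogenic factor Vegfa (log2 fold change -0.87 ± 0.14) and the oxygen sensor Egln3 (-0.70 ± 0.17). The edgeR adjusted p-values were 0.00233 for Vegfa and 0.0339 for Egln3. With the acinar covariate Egln3 did not pass (edgeR adjusted p = 0.132), and Slc2a1 of the same list fell (-0.81 ± 0.16, edgeR adjusted p = 0.0135). Vegfa, Fkbp5 and Zbtb16 passed in that fit too. Of 9 copper, 10 iron and 8 NRF2 genes tested 0 passed in the host comparison. Slc31a2, a copper transporter, and Gsr, glutathione reductase, rose with the acinar score (Slc31a2 slope 0.17 ± 0.04, edgeR adjusted p = 0.00688, and Gsr slope 0.12 ± 0.03, edgeR adjusted p = 0.0192).

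Markers of some other cell types passed in one of the comparisons, macrophage, T cell, fibroblast and ductal markers between hosts and islet and fibroblast markers for the acinar score. Their part in the levels of the zinc genes was not tested. The shares over all genes were 2.23% higher and 0.747% lower between hosts, and 2.59% positive for the acinar score, all by edgeR. All 15 acinar markers had a positive log2 fold change (median 2.58) and 0 passed. Of 8 islet markers 7 were tested, 0 passed in the host comparison and 3, Ins2, Gcg and Sst, rose with the acinar score, at summed levels of 71.1 to 1269 CPM in Alb-Cre Stat3f/f tumours, against 36.6 to 1018 CPM in WT tumours. Macrophage markers rose in 5 of 7 (Adgre1, C1qa, C1qb, C1qc and Mrc1), at 1504 to 2359 CPM in Alb-Cre Stat3f/f tumours, against 1002 to 1543 CPM in WT tumours. T cell markers rose in 1 of 6 tested (Cd247), at 35.4 to 71.7 CPM in Alb-Cre Stat3f/f tumours, against 12.85 to 34.8 CPM in WT tumours. With the acinar covariate Mrc1 (edgeR adjusted p = 0.199) and Cd247 (0.0885) no longer passed, while the other 4 macrophage markers did. Fibroblast markers rose in 1 of 7 (Dcn, which also rose with the acinar score), at 4371 to 7546 CPM in Alb-Cre Stat3f/f tumours, against 3271 to 6200 CPM in WT tumours. Hepatocytes are rich in metallothionein, and their markers were present at 29.0 to 285 CPM in Alb-Cre Stat3f/f tumours, against 84.4 to 373 CPM in WT tumours, with 0 of 8 called in either comparison. Of 6 endothelial markers 0 were called (76.9 to 179.8 CPM in Alb-Cre Stat3f/f tumours, against 94.0 to 152 CPM in WT tumours). Only 1 of the marker genes measured was at 0 in any tumour, Serpina1a of hepatocytes in Alb-Cre Stat3f/f 6, and Trac was not analysed here.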

How the data were processed

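The 12 libraries were QuantSeq 3′ FWD libraries from scraped FFPE sections, per the labels' protocols. The deposited values are raw counts per gene symbol, which the authors did not normalise, as their unequal whole-number totals show. STAR and mm10 are named in the submitters' processing notes, while their versions, the counter, the annotation and the strand setting are not given there. Of 24982 rows, 26 named by a date number were left out (0.0690 to 0.166% of counts). No pair of libraries of the same host was near identity (chi-square per gene at least 12.6).

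Counts were filtered by filterByExpr (minimum count 10, total 15), scaled by TMM (factors 0.578 to 1.29) and fitted by edgeR 4.0.16 (robust quasi-likelihood, R 4.3.3), two-sided, with Benjamini-Hochberg adjustment over all tested genes and a threshold of 0.05. Host was the sole term of the first fit, and the acinar score (prior count 2) was added for the slopes. SE is the log2 value over the root of F. DESeq2 1.42.0 was an alternative. Scripts were tested on simulated counts. No molecular identifiers are stated, so copies of 1 molecule may have been counted more than once. The binomial intervals of Slc30a2 were taken on summed counts, so they cover counting error at most. Genes and lists were chosen with earlier results of these data known. Genes were named by rule: the 7 described, list members past the threshold, and the 4 most alike in pattern to Mt1, Mt2, Slc30a2 and Slc39a14. Slc39a4, Slc39a8, Slc30a8, Slc2a1, Mt3, Mt4 and the marker genes that passed were named after their values were seen.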

Additional observations from a re-analysis of the deposited data

Results flagged for a closer look

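Slc30a2 had 3.92 CPM in WT 5, far from the other 5 WT tumours, of which the nearest had 0.592 CPM. The gap was 0.849 of the whole WT range. WT 5 also had the highest acinar share of its group, 17.8%, and a link between these values was not tested. Of 14 groups examined, 1 stood out in this way, and chance alone flags about 1 in 20.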

How the results depend on the processing

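Over all genes, edgeR called 287 higher and 96 lower in the Alb-Cre Stat3f/f group. The numbers were 145 and 44 with tumour number as a replicate block, 137 and 36 with the acinar covariate, 83 and 14 without the acinar-rich tumours, and 618 and 288 by DESeq2. Leaving out 1 tumour at a time gave 141 to 471 and 37 to 222. For the acinar slope, 333 were positive and 105 negative, against 142 and 13 with the replicate block, 734 and 475 without a genotype term, and 203 negative by DESeq2. Leaving out 1 tumour gave 137 to 418 and 19 to 231. The cause of these shifts was not tested.

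Of the described genes, 0 were called higher between hosts, but 2 by DESeq2, and 0 to 2 on leaving out 1 tumour, with 2 only without Alb-Cre Stat3f/f 5. Those with a positive slope numbered 2, but 1 without the low-count filter, 1 with the replicate block, 1 with the log2 acinar share as the measure, and 0 to 2 on leaving out 1 tumour. The number was 3 by DESeq2 and 3 without a genotype term, with Mt2 added (adjusted p 0.0213 and 0.0153). Mt1 was the gene lost without the filter, with the block and with the share (edgeR adjusted p 0.0895, 0.170 and 0.0824). The tumour numbers share no stated pairing: the correlation of equal numbers ran from -0.51 to 0.13, and 1 of 6 matched best with its own number.

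The host difference of Slc30a1 was negative with the acinar covariate (-0.21) and without the acinar-rich tumours (-0.46), and ran from -0.060 to 0.16 on leaving out 1 tumour, negative without Alb-Cre Stat3f/f 1 or 3 or WT 6. That of Slc39a14 was -0.52 without the acinar-rich tumours, and the slope of Mtf1 was -0.013 with the replicate block and -0.018 to 0.050 on leaving out 1 tumour, negative without WT 6. RLE scaling and removal of the acinar genes and Rn45s before scaling changed no call of the described genes. Counts under 25 a tumour limit what can be said of Slc30a2.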
